A study of Drosophila melanogaster with 13 samples.

Results

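The genes described here are microtubule-associated proteins, microtubule motors, severing and depolymerising enzymes, tubulin cofactors and the kinases that act on them. They are matched by gene symbol to a list of 40 that was drawn up with earlier results of these data known; no measured value enters the match. Of the 40 symbols, 39 were found among the 18344 genes of the deposited files, and 36 of these had a mean level of at least 1 FPKM (fragments scaled to gene length and to library size) over the 13 libraries and were tested. The remaining symbol, Atat, the alpha-tubulin acetyltransferase, was listed in the files under the older name CG3967 (FBgn0035989), with 28.8 ± 1.75, 29.5 ± 0.899 and 28.1 ± 0.753 FPKM in Rab5 RNAi, Rab7-labelled and control heads (SD, n = 5, 4 and 4), and it was not called in any comparison.

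RNA was sequenced from whole heads of Drosophila melanogaster adults aged 5 days, from crosses kept at 25 °C. The genotypes were GMR-Gal4/UAS-Rab5 RNAi (5 libraries), GMR-Gal4/UAS-Rab7 RNAi (4 libraries) and, as controls, GMR-Gal4/WT (4 libraries). All 3 groups carried the GMR-Gal4 driver, which is active in the eye, so the RNAi was directed to the eye while the RNA came from the entire head. The study asked how Rab proteins bear on microtubule assembly and tubulin expression in flies whose eyes degenerate under Rab5 RNAi. The controls carried no RNAi construct, so the effect of an RNAi target and that of the construct or its strain background cannot be told apart.

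Microtubules are hollow polymers of alpha- and beta-tubulin that grow and shrink mainly at their plus ends. Proteins that bind along the lattice stabilise them, plus-end proteins steer their growth, and severing enzymes and kinesins of the depolymerising families take them apart. Kinesin and dynein motors walk along them, and in neurons, photoreceptors included, they carry vesicles, mitochondria and endosomes through the axon. Rab5 is the GTPase of early endosomes and Rab7 that of late endosomes, both of which are among the cargoes that these motors move.

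The targeted gene was checked first. Rab5 had 57.7 ± 5.56 FPKM in Rab5 RNAi heads and 115.5 ± 4.54 FPKM in controls (SD, n = 5 and 4), a log2 difference of -0.99 (SE 0.09, limma adjusted p = 1.9e-05). All log2 and fold differences here are on the log2(FPKM + 1) scale. For Rab7, the 4 libraries that carry its label had 97.7 ± 9.54 FPKM and the 4 controls 100 ± 3.93 FPKM (mean ± SD), a log2 difference of -0.04 (SE 0.08, limma adjusted p = 0.88). A lower Rab7 transcript was thus not detected in whole heads, and these 4 libraries are called Rab7-labelled throughout. A direction given for them is a direction of the label only. Marker genes of photoreceptors summed to 1898.4 to 9095.1 FPKM in Rab5 RNAi, 18510.6 to 41331.1 FPKM in Rab7-labelled and 35168.2 to 46391.9 FPKM in control libraries, and 14 of the 15 were lower in Rab5 RNAi than in controls. Of 10 general neuronal markers, 2 were lower in Rab5 RNAi, and their sums were 694.1 to 863.9 FPKM in Rab5 RNAi and 923.8 to 1047.2 FPKM in control libraries. Of 8 glial markers 1 was lower in Rab5 RNAi, of 5 tested fat body markers 3, of 5 tested retinal pigment cell markers 2 and of 7 tested hemocyte markers 0. In Rab7-labelled heads, against controls, 4 hemocyte markers and 1 glial marker were lower and 2 pigment cell markers were higher. Of the same lists, 12 photoreceptor, 1 neuronal, 2 fat body and 4 pigment cell markers were lower and 5 hemocyte markers higher in Rab5 RNAi than in Rab7-labelled heads. None of these markers was at 0 in every library. In whole heads, fewer cells of a type and less RNA per cell cannot be told apart, and the part these markers have in the results below was not tested.

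The microtubule genes were well expressed in heads. FPKM divides by gene length, so levels can be set side by side between genes. In controls the kinesin-3 motor unc-104, which carries synaptic vesicle precursors, was the highest of the 39 at 162.6 FPKM, followed by the dynein regulator Lis-1 at 100.6 FPKM and the lattice-binding protein Jupiter at 84.8 FPKM. The lowest tested gene was mars, a mitotic spindle protein, at 2.35 FPKM in controls. As the strand setting of the counting is not known, reads of a gene and of one that overlaps it on the other strand may be mixed. This touches, among others, mars (with drk, at a mean of 27.4 FPKM), Kat60 (Vps37B, 27.4), spas (Miro, 22.2), CLIP-190 (Rpb11, 26.5), kat80 (Mfe2, 29.3), Mapmodulin (a long non-coding RNA, 36) and the pair TBCB and par-1 (20.2 and 51.3). Further cases with a lower gene on the other strand include Eb1 (CG3420, 19.7), Patronin (CG4866, 14.1), kat-60L1 (Hat1, 14), Klc (CG32109, 12.3), msps (CG10185, 7.57), unc-104 and tacc. On the same strand, chb overlaps AsnS (27.8), so their reads may be mixed under any strand setting. The 3 genes not tested lay below the mean of 1 FPKM needed for a test. Klp67A, a kinesin-8 of the mitotic spindle, had 0.713 ± 0.0909, 0.84 ± 0.279 and 0.517 ± 0.13 FPKM, and Fign, the fly fidgetin severing enzyme, had 0.349 ± 0.186, 0.26 ± 0.0815 and 0.206 ± 0.123 FPKM in Rab5 RNAi, Rab7-labelled and control libraries (SD, n = 5, 4 and 4). Klp59C, a depolymerising kinesin-13, was listed at 0 in all 4 controls, at 0.0501 FPKM in 1 Rab5 RNAi library and at 0.0847 and 0.0526 FPKM in 2 Rab7-labelled libraries, and at 0 in the others.

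**Figure D1:**
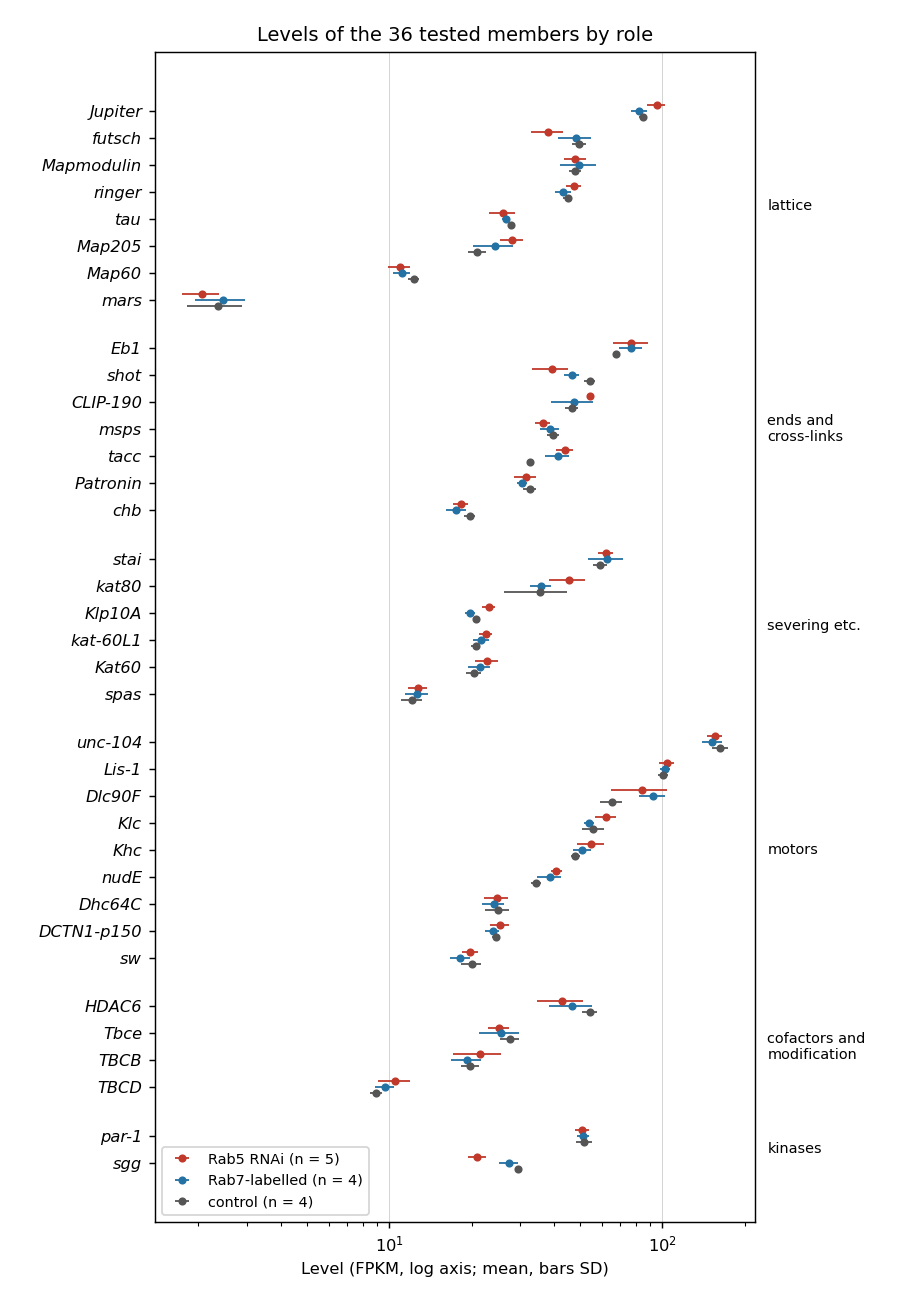
Mean level of each of the 36 tested genes (FPKM, log axis; bars, SD) in Rab5 RNAi (n = 5), Rab7-labelled (n = 4) and control (n = 4) heads, grouped by role. Most groups overlap within their bars. Bars that lie apart from those of controls include sgg, shot, futsch, tacc, Map205 and nudE in Rab5 RNAi, and tacc and Dlc90F in Rab7-labelled heads.

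In Rab5 RNAi heads 6 of the 36 tested genes differed from controls. This is 16.7%, against 17.5% of all 10038 genes tested, so the share called was near that of genes in general. Higher were 3 (8.33%, against 8.26% of all genes) and lower were 3 (8.33%, against 9.28% of all genes). The 3 higher genes were tacc, Map205 and nudE, and the 3 lower genes were sgg, shot and futsch. All 6 differences were under 1.5-fold in size: no microtubule gene reached a log2 difference of 0.5 in either direction, against 14% of all genes tested. The median log2 difference was 0.06 for the microtubule genes and -0.01 for all genes, and the median absolute difference was 0.14 and 0.16. Scaled by plain read totals instead of the deposited scaling, 9 genes were called, 7 higher and 2 lower, and 5 of the 6 were among them. Under that scaling 20.2% of all genes were called, and the higher ones made up 67.6% of these calls in place of 47.1%.

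The gene with the smallest adjusted p was a kinase. It is sgg, the fly GSK-3, which phosphorylates several microtubule-associated proteins and acts in Wingless signalling (FBgn0003371, X, 2633952 to 2679553, plus strand). It had 20.1, 21.7, 22.2, 18.4 and 22.3 FPKM in Rab5 RNAi libraries 1 to 5, 26.9, 28.5, 29.7 and 24.4 FPKM in Rab7-labelled libraries 1 to 4, and 29.1, 29.0, 30.9 and 29.6 FPKM in controls 1 to 4. Every Rab5 RNAi library was below every library of the other 2 groups, while Rab7-labelled and control libraries overlapped. The log2 difference of Rab5 RNAi from control was -0.48 (SE 0.07, 95% interval -0.64 to -0.33, 0.72-fold, limma adjusted p = 5.9e-04). The other kinase on the list, par-1, the fly MARK kinase, had 50.9 ± 2.93 FPKM in Rab5 RNAi and 51.7 ± 3.6 FPKM in controls (SD, n = 5 and 4), a log2 difference of -0.02 with a 95% interval of -0.17 to 0.13.

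The gene shot encodes a spectraplakin, a giant protein that links microtubules to actin (FBgn0013733, 2R, 13864237 to 13942110, minus strand). It had 41.7, 35.0, 42.5, 31.4 and 45.9 FPKM in Rab5 RNAi libraries 1 to 5, 46.8, 42.4, 48.9 and 48.5 FPKM in Rab7-labelled libraries 1 to 4, and 52.7, 51.7, 57 and 55.4 FPKM in controls 1 to 4. All 5 Rab5 RNAi libraries, and also all 4 Rab7-labelled libraries, lay below the lowest control. Rab5 RNAi differed from control by -0.47 in log2 (SE 0.10, 95% interval -0.68 to -0.25, 0.72-fold, limma adjusted p = 0.0063). For Rab7-labelled heads it was -0.21 (SE 0.11, limma adjusted p = 0.32), which did not pass.

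The third lower gene, futsch, encodes the fly MAP1B, a lattice-binding protein of neurons that supports axons and synaptic microtubules (FBgn0259108, X, 1409069 to 1453686, plus strand). It had 33.9, 42.7, 42.1, 31.7 and 40.2 FPKM in Rab5 RNAi libraries 1 to 5, 46.1, 52.4, 54.3 and 39.6 FPKM in Rab7-labelled libraries 1 to 4, and 48.3, 47.5, 54.1 and 48.4 FPKM in controls 1 to 4. Every Rab5 RNAi library was below every control, and Rab7-labelled libraries overlapped both groups. Rab5 RNAi differed from control by -0.38 in log2 (SE 0.11, 95% interval -0.61 to -0.14, 0.77-fold, limma adjusted p = 0.0305). The call was lost when Rab5 RNAi 1 or 4 or any 1 of the 4 controls was left out, with log2 differences of -0.40 to -0.32 and adjusted p of 0.0524 to 0.095.

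Of the 3 higher genes, tacc had the largest difference. It encodes the partner of the microtubule polymerase Msps at centrosomes and microtubule ends (FBgn0026620, 3R, 4733654 to 4749056, minus strand). It had 39.9, 44.8, 41.1, 47.5 and 46.3 FPKM in Rab5 RNAi libraries 1 to 5, 44.7, 44.5, 36.2 and 39.6 FPKM in Rab7-labelled libraries 1 to 4, and 32.8, 33.0, 33.1 and 32.3 FPKM in controls 1 to 4. The controls were nearly equal to each other, and every library of the other 2 groups was above them. The log2 difference of Rab5 RNAi from control was 0.41 (SE 0.08, 95% interval 0.24 to 0.57, 1.33-fold, limma adjusted p = 0.0025). The partner gene msps had 36.5 ± 2.37 FPKM in Rab5 RNAi and 39.9 ± 1.99 FPKM in controls (SD, n = 5 and 4), a log2 difference of -0.13 (95% interval -0.28 to 0.02, limma adjusted p = 0.24).

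Map205 encodes a fly lattice-binding protein that also binds the mitotic kinase Polo (FBgn0002645, 3R, 32055279 to 32068441, minus strand). It had 27.1, 25.0, 28.2, 27.5 and 32.5 FPKM in Rab5 RNAi libraries 1 to 5, 30.0, 23.9, 20.8 and 22.3 FPKM in Rab7-labelled libraries 1 to 4, and 19.7, 19.5, 21.7 and 22.9 FPKM in controls 1 to 4. Every Rab5 RNAi library was above every control, and Rab7-labelled libraries spread over both ranges. Relative to control, Rab5 RNAi was higher by 0.40 in log2 (SE 0.10, 95% interval 0.18 to 0.62, 1.32-fold, limma adjusted p = 0.016). Without control 1 it was 0.38 (adjusted p = 0.0551) and without control 2 it was 0.37 (adjusted p = 0.0558), so the call was lost in both.

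The third higher gene, nudE, encodes a dynein regulator that works with Lis-1 (FBgn0036059, 3L, 9898703 to 9903031, plus strand). It had 38.7, 39.5, 43.7, 41.4 and 41.3 FPKM in Rab5 RNAi libraries 1 to 5, 42.2, 41.3, 33.9 and 36.8 FPKM in Rab7-labelled libraries 1 to 4, and 34.6, 33.1, 33.4 and 36.4 FPKM in controls 1 to 4. Rab5 RNAi and control libraries did not overlap, while Rab7-labelled libraries lay across both. Relative to control, Rab5 RNAi was higher by 0.24 in log2 (SE 0.07, 95% interval 0.09 to 0.40, 1.18-fold, limma adjusted p = 0.033). It lost its call without Rab5 RNAi 3, 4 or 5 or without control 1, 2 or 3, with log2 differences of 0.22 to 0.25 and adjusted p up to 0.094.

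**Figure D2:**
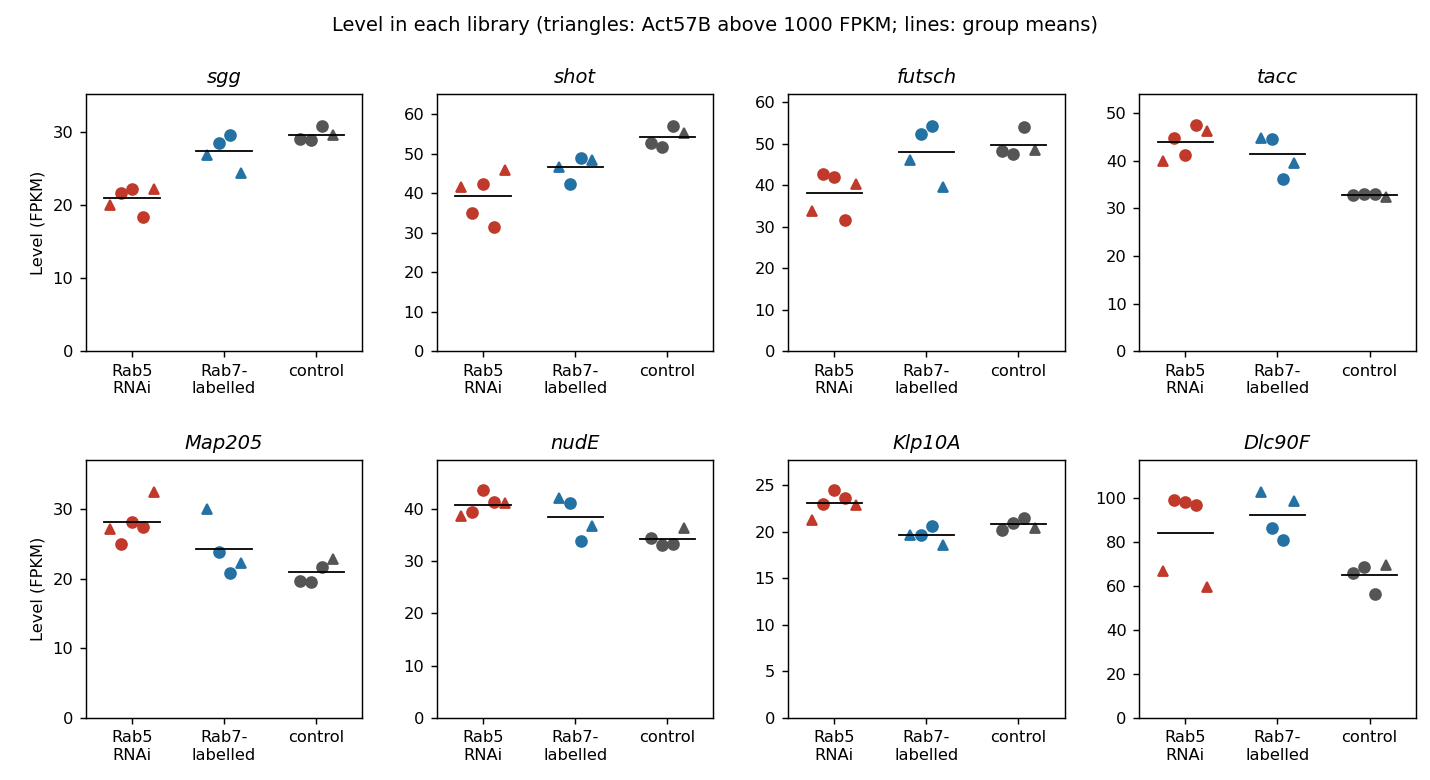
Level (FPKM) in each library of the 7 genes called in any comparison and of Dlc90F, with Rab5 RNAi at the left, Rab7-labelled in the middle and control at the right; lines are group means and triangles are the 5 libraries with more than 1000 FPKM of the muscle actin Act57B. For sgg, shot and futsch all 5 Rab5 RNAi points lie below all 4 control points, and for tacc, Map205 and nudE all 5 lie above them.

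Counted without a model, the Rab5 RNAi and control libraries did not overlap for 7 of the 36 genes (19.4%), against 18.6% of all genes tested. These were the 6 genes called and CLIP-190, the fly CLIP-170 plus-end protein. CLIP-190 had 54.9, 53.2, 52.8, 54.3 and 56.3 FPKM in Rab5 RNAi libraries 1 to 5 and 45.0, 45.2, 46.3 and 50.4 FPKM in controls 1 to 4. Its Rab5 RNAi values were close together and all above the highest control. The log2 difference was 0.21 (SE 0.10) and did not pass (limma adjusted p = 0.16), and the Rab7-labelled mean of 47.3 ± 8.32 FPKM (SD, n = 4) had the widest spread of the 3 groups. It passed in 2 of 22 alternative settings, with only these 2 groups in the fit (0.21, SE 0.062, limma adjusted p = 0.0418) and without the high Act57B libraries described below. Between the RNAi groups it passed without those libraries (0.40, limma adjusted p = 0.0059) and with a term for them (0.23, limma adjusted p = 0.0443), but not with all libraries (0.21, limma adjusted p = 0.19).

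The plus-end proteins Eb1 and chb were not called with all libraries. Eb1, the core plus-end tracking protein, averaged 77.0 ± 11.3 FPKM in Rab5 RNAi, 76.9 ± 7.48 FPKM in Rab7-labelled and 67.7 ± 1.36 FPKM in control heads (SD, n = 5, 4 and 4). The CLASP homologue chb averaged 18.3 ± 1.14, 17.6 ± 1.43 and 19.7 ± 0.923 FPKM in the same order of groups. Their limma adjusted p against control lay between 0.26 and 0.45 in both RNAi groups.

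Among the enzymes that sever, depolymerise or sequester, 6 of 9 could be tested and 0 were called between Rab5 RNAi and control. Their log2 differences ran from 0.07 to 0.36 with a median of 0.13, where the median over all 36 tested microtubule genes was 0.06. Whether they differ as a set was not tested. Kat60, the catalytic subunit of katanin, averaged 22.8 ± 2.27 FPKM in Rab5 RNAi, 21.4 ± 1.95 FPKM in Rab7-labelled and 20.4 ± 1.33 FPKM in control heads. Its relative kat-60L1 averaged 22.5 ± 1.27, 21.7 ± 1.41 and 20.7 ± 0.85 FPKM, and spastin, spas, 12.7 ± 1.01, 12.6 ± 1.22 and 12.1 ± 1.09 FPKM in the same order. The regulatory katanin subunit kat80 had 50.6, 44.4, 47.1, 34.0 and 50.7 FPKM in Rab5 RNAi libraries 1 to 5 and 31.8, 30.0, 31.0 and 49.4 FPKM in controls 1 to 4. One control was as high as the Rab5 RNAi libraries, and the log2 difference of 0.36 (SE 0.15) did not pass (limma adjusted p = 0.12). Without that library, control 4, it was 0.52 (adjusted p = 0.01), and without Rab5 RNAi 4, the lowest of its group, it was 0.46 (adjusted p = 0.0417). The tubulin-sequestering stathmin, stai, averaged 62.2 ± 3.98, 62.7 ± 9.09 and 59.2 ± 3.51 FPKM in Rab5 RNAi, Rab7-labelled and control heads (SD, n = 5, 4 and 4).

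Of the 9 transport motor genes and regulators, whose control levels reached 162.6 FPKM, nudE was the only one called in any comparison. The log2 difference of Rab5 RNAi from control was -0.07 (95% interval -0.24 to 0.11) for unc-104, at 155.4 ± 10.1 FPKM in Rab5 RNAi, 152.3 ± 12.4 FPKM in Rab7-labelled and 162.6 ± 11.2 FPKM in control heads. For Lis-1 it was 0.04 (95% interval -0.10 to 0.19), at 103.7 ± 6.51, 102.1 ± 4.41 and 100.6 ± 4.13 FPKM. The kinesin-1 heavy chain Khc averaged 54.9 ± 6.23, 50.9 ± 3.69 and 48.0 ± 1.83 FPKM, and its light chain Klc 62.2 ± 5.61, 53.9 ± 2.49 and 55.9 ± 5.05 FPKM. The remaining dynein and dynactin genes, Dhc64C, sw and DCTN1-p150, had log2 differences of -0.02, -0.02 and 0.05 between Rab5 RNAi and control.

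Dlc90F, the Tctex-type light chain of cytoplasmic dynein, varied more than any other motor gene within Rab5 RNAi (FBgn0024432, 3R, 18299229 to 18300044, plus strand). It had 67.0, 99.2, 98.3, 97 and 59.5 FPKM in Rab5 RNAi libraries 1 to 5, 102.7, 86.7, 81.0 and 98.8 FPKM in Rab7-labelled libraries 1 to 4, and 65.9, 68.6, 56.2 and 69.7 FPKM in controls 1 to 4. Rab5 RNAi fell into 3 high libraries and 2 at the level of controls, while all 4 Rab7-labelled libraries were above every control. The log2 difference was 0.34 (SE 0.15, limma adjusted p = 0.16) for Rab5 RNAi and 0.50 (SE 0.16, limma adjusted p = 0.12) for Rab7-labelled heads, each against control, and neither passed. Without Rab5 RNAi 5 the first of these was 0.45 (adjusted p = 0.0324).

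The tubulin cofactors, which fold and recycle tubulin dimers, were not called. Tbce averaged 25.2 ± 2.25, 25.6 ± 4.33 and 27.7 ± 2.19 FPKM in Rab5 RNAi, Rab7-labelled and control heads (SD, n = 5, 4 and 4), TBCD 10.5 ± 1.45, 9.62 ± 0.74 and 8.95 ± 0.421 FPKM, and TBCB 21.4 ± 4.23, 19.3 ± 2.42 and 19.8 ± 1.55 FPKM. HDAC6, a deacetylase of alpha-tubulin named here after its values were seen, had 53.2, 32.2, 43.2, 38.3 and 48.1 FPKM in Rab5 RNAi libraries 1 to 5 and 58.9, 53.5, 53.1 and 50.9 FPKM in controls 1 to 4. Its groups overlapped by 1 Rab5 RNAi library, and the log2 difference of -0.34 (SE 0.14) did not pass (limma adjusted p = 0.12).

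Of the genes listed as lattice-binding and not called, Jupiter averaged 95.2 ± 7.16 FPKM in Rab5 RNAi, 82.4 ± 5.75 FPKM in Rab7-labelled and 84.8 ± 2.51 FPKM in control heads. Its log2 difference between Rab5 RNAi and control was 0.16 (SE 0.07, limma adjusted p = 0.15). The fly tau, the TPPP homologue ringer, Mapmodulin, Map60 and mars had log2 differences of -0.16 to 0.08 in the same comparison, and so did the minus-end protein Patronin, at -0.05. Over the 30 genes not called between Rab5 RNAi and control, the 95% interval lay inside a log2 difference of 0.5, or 1.41-fold, on either side for 27. The other 3 were kat80, whose interval reached 0.68, Dlc90F, which reached 0.67, and HDAC6, which reached -0.65.

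**Figure D3:**
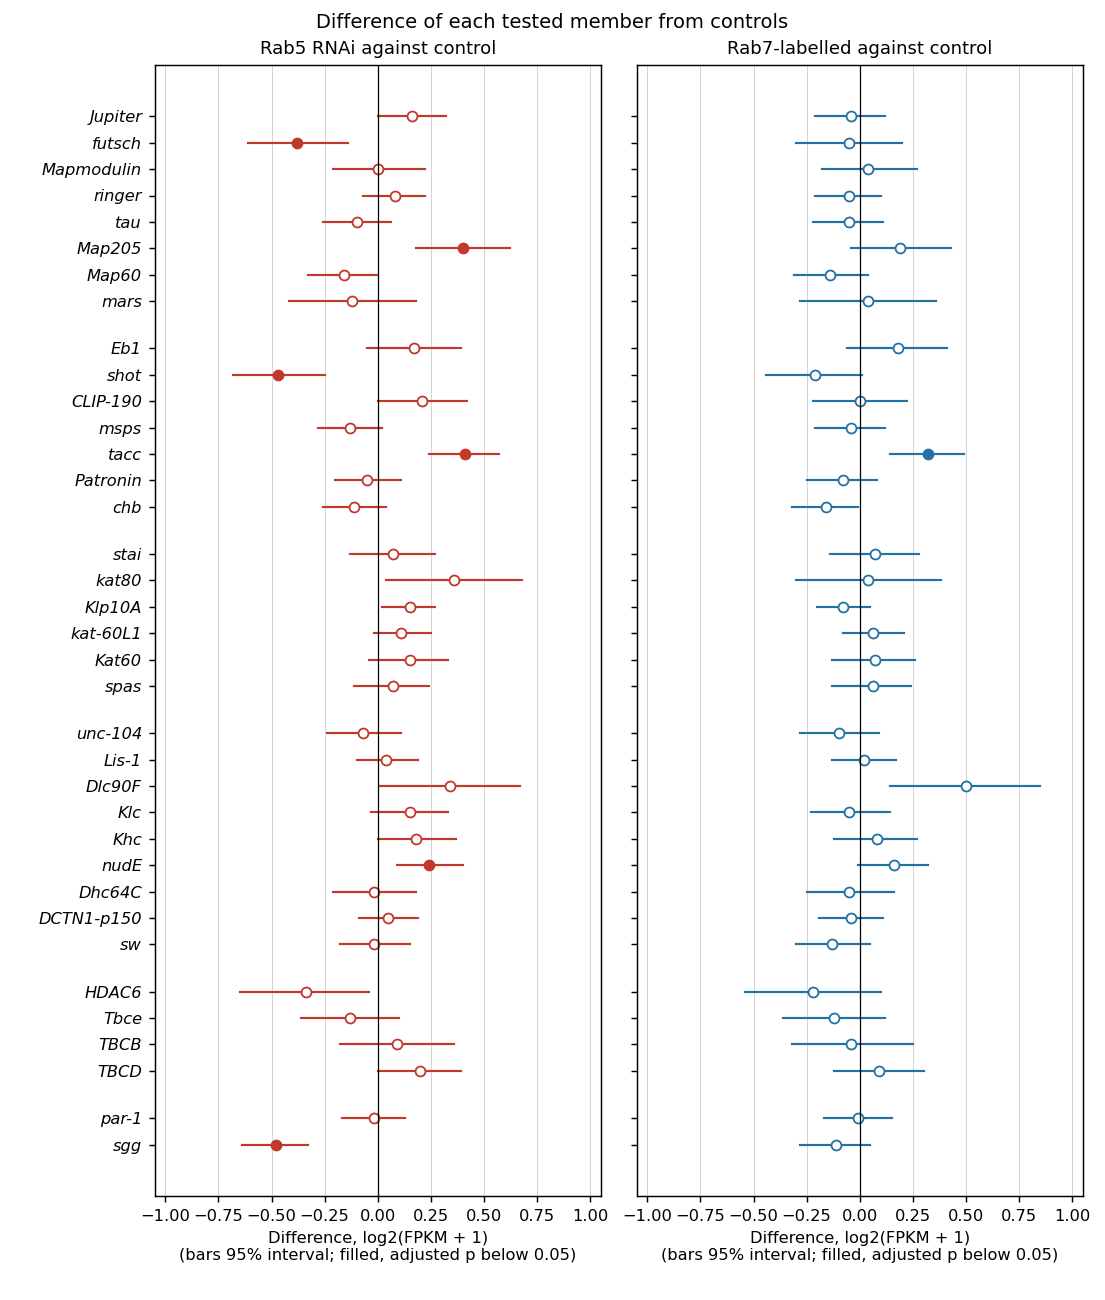
Log2 difference of each tested gene on the log2(FPKM + 1) scale (bars, 95% interval; filled, adjusted p below 0.05), for Rab5 RNAi against control at the left and Rab7-labelled against control at the right. The filled points at the left are futsch, Map205, shot, tacc, nudE and sgg, and the one at the right is tacc. Both panels use the same 4 controls.

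In Rab7-labelled heads 1 of the 36 genes differed from controls, which is 2.78%, against 3.21% of all genes tested. It was tacc, with a log2 difference of 0.32 (SE 0.08, 95% interval 0.14 to 0.49, 1.25-fold, limma adjusted p = 0.0497), just inside the threshold. The call was lost when any 1 of 11 of the 13 libraries was left out, and held only without Rab5 RNAi 1 or without Rab7-labelled 3. Over these 11 the log2 difference was 0.28 to 0.34, with adjusted p up to 0.16. The median absolute log2 difference from control was 0.07 for the microtubule genes and 0.12 for all genes. At an unadjusted p under 0.05 there were 3 of 36 (8.33%), against 17.3% of all genes.

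Between the RNAi groups, 2 of the 36 genes differed, 5.56% against 11.1% of all genes tested. As the values above show, sgg was lower in Rab5 RNAi than in every Rab7-labelled library, with a log2 difference of -0.37 (SE 0.07, 95% interval -0.53 to -0.21, 0.77-fold, limma adjusted p = 0.0052). The other was Klp10A, a depolymerising kinesin-13 (FBgn0030268, X, 11129362 to 11137118, minus strand). It had 21.3, 23.0, 24.5, 23.7 and 22.9 FPKM in Rab5 RNAi libraries 1 to 5, 19.7, 19.7, 20.6 and 18.6 FPKM in Rab7-labelled libraries 1 to 4, and 20.2, 21.0, 21.5 and 20.4 FPKM in controls 1 to 4. Rab5 RNAi was above every Rab7-labelled library and overlapped the controls by 1 library. The log2 difference of Rab5 RNAi from Rab7-labelled heads was 0.22 (SE 0.06, 95% interval 0.10 to 0.34, 1.17-fold, limma adjusted p = 0.023). It lost its call without Rab5 RNAi 3 (0.20, adjusted p = 0.0508), without Rab7-labelled 1 (0.22, adjusted p = 0.0522) and without Rab7-labelled 4 (0.20, adjusted p = 0.068). It was also lost without the high Act57B libraries described below (0.23, adjusted p = 0.086) and with only these 2 groups in the fit (0.22, adjusted p = 0.077). The direct comparison of shot (log2 difference -0.25, limma adjusted p = 0.13), futsch (-0.33, 0.074), tacc (0.09, 0.50), Map205 (0.21, 0.22) and nudE (0.09, 0.50) did not pass with all libraries. For futsch this depended on the setting: it passed without Rab7-labelled 4 (-0.42), without the high Act57B libraries (-0.46, adjusted p = 0.038) and with a term for them (-0.34, adjusted p = 0.0352). With plain read totals 5 genes were called between the RNAi groups, 4 higher and 1 lower, while 16.4% of all genes were called, with 74.0% of these higher in place of 42.2%.

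The libraries also differed in muscle RNA. Act57B, a muscle actin, stood at 1437.9 to 1574.3 FPKM in 5 libraries (Rab5 RNAi 1 and 5, Rab7-labelled 1 and 4 and control 4) and at 652.6 to 846.5 FPKM in the other 8. Over 14 muscle markers the summed level was 2218.6 to 4205.6 FPKM in Rab5 RNAi, 2148.0 to 4098.8 FPKM in Rab7-labelled and 2505.1 to 4033.4 FPKM in control libraries, and 1 of the 14 was called between Rab5 RNAi and control. Among the 3 Rab5 RNAi and 3 control libraries without high Act57B, 15 of the 36 genes were called (41.7%), 11 higher and 4 lower, against 25.5% of all genes tested. They include the 6 genes called in all libraries and 9 more. The part of muscle RNA in these differences was not tested.

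Within the 8 libraries without high Act57B, Dlc90F had the largest difference, at 97 to 99.2 FPKM in 3 Rab5 RNAi libraries and 56.2 to 68.6 FPKM in 3 controls (log2 difference 0.62, SE 0.09, limma adjusted p = 6.6e-04). Both Rab5 RNAi libraries with high Act57B were those with control-like Dlc90F. The 2 Rab7-labelled libraries with high Act57B had the highest Dlc90F values of that group. How Dlc90F and Act57B relate was not tested. HDAC6 was lower, at 32.2 to 43.2 FPKM in Rab5 RNAi and 53.1 to 58.9 FPKM in controls (-0.54, SE 0.13, limma adjusted p = 0.015). Both kinesin-1 chains passed there, Khc at 54.3 to 62.5 FPKM in Rab5 RNAi and 46.2 to 49.0 FPKM in controls (0.31, limma adjusted p = 0.020), and Klc at 62 to 69.7 FPKM in Rab5 RNAi and 52.0 to 56.6 FPKM in controls (0.29, limma adjusted p = 0.023). The remaining 5 were kat80 (0.41), Eb1 (0.32), TBCD (0.31), Jupiter (0.25) and CLIP-190 (0.23), with adjusted p of 0.025 to 0.048. With all 13 libraries and a model term for high Act57B instead, 7 genes were called, the same 6 and Klp10A (0.16, limma adjusted p = 0.042), or 19.4%, against 23.1% of all genes in that fit.

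**Figure D4:**
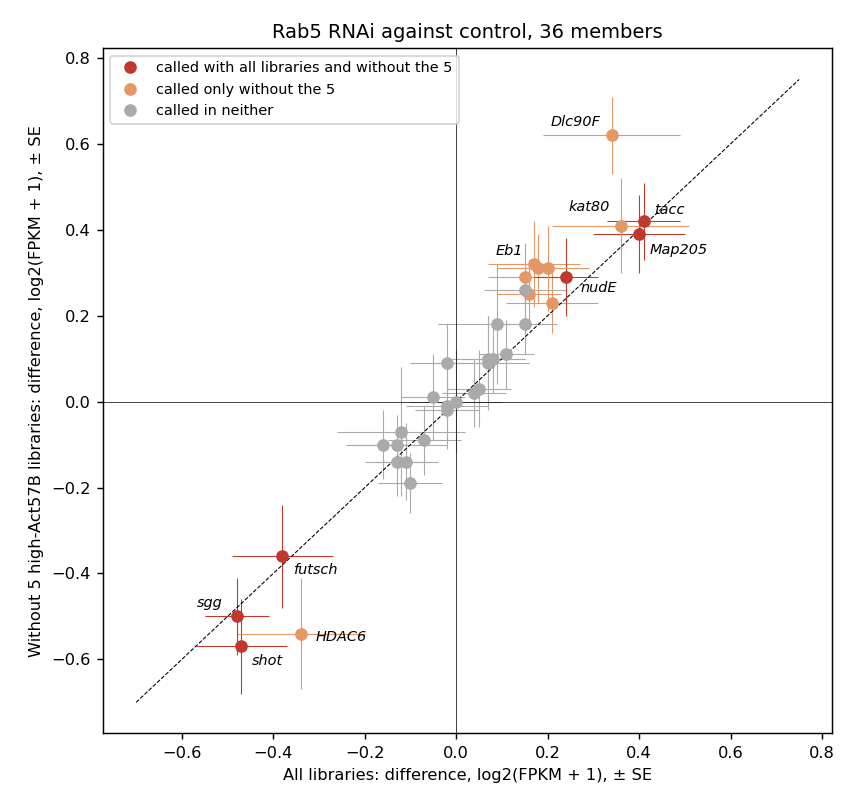
Log2 difference between Rab5 RNAi and control for the 36 tested genes, with all libraries (horizontal axis, ± SE) and without the 5 libraries with high Act57B (vertical axis, ± SE), both on the log2(FPKM + 1) scale. The dashed line marks equal values; Dlc90F lies at 0.34 with all libraries and 0.62 without the 5, and HDAC6 at -0.34 and -0.54. The 8 libraries of the vertical axis are part of the 13 of the horizontal one.

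The 3 lower genes in Rab5 RNAi are also among the longest on the list. In the deposited table shot has a length of 30414 bases, futsch 23308 bases and sgg 12445 bases. Of the 5 tested microtubule genes of 10000 bases or more these 3 were lower, and the other 2, the dynein heavy chain Dhc64C (14597 bases) and par-1 (12693 bases), had log2 differences of -0.02 each. Over all 261 tested genes of this length the median log2 difference was -0.11, with 12.3% called lower and 2.68% called higher. In the shorter length classes 7.96 to 9.61% were called lower and 5.61 to 9.12% higher. The medians in the length classes under 5000 bases were 0.00 to 0.01. Whether length bears on the 3 lower genes was not tested.

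**Figure D5:**
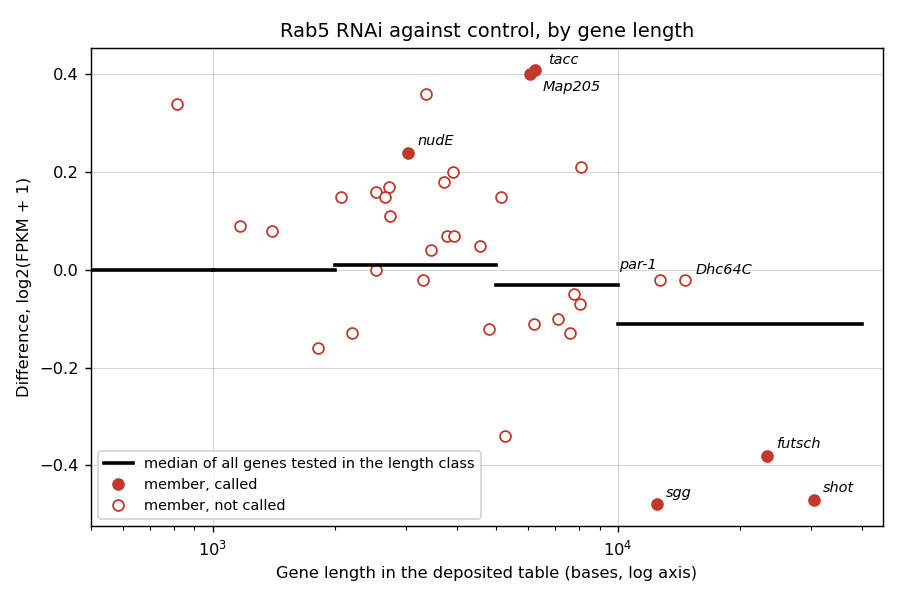
Log2 difference between Rab5 RNAi and control against gene length (bases, log axis) for the 36 tested genes (filled, called) and the median of all genes tested in each length class (black lines). The 3 lower genes lie at 12445 bases and above, where the median of all genes is -0.11.

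The microtubule genes varied less within a group than genes in general, which reach down to a mean of 1 FPKM and were not matched to them for level. The part of level in this difference was not tested. The median coefficient of variation was 8.97% in Rab5 RNAi, 8.26% in Rab7-labelled and 5.25% in control heads, against 14.5%, 12.2% and 9.99% for all genes tested. Controls had the lowest coefficient of variation of the 3 groups for 26 of the 36 genes (72.2%), against 51.0% of all genes. Within controls it ran from 0.979% for tacc to 26.1% for kat80.

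The rest of the microtubule machinery was read from 6 further gene lists with 126 genes, of which 102 were tested. In Rab5 RNAi 6 were higher and 8 lower than in controls, 13.7% in all, against 17.5% of all genes tested. In Rab7-labelled heads 2 were higher and 1 lower than in controls (2.94%, against 3.21%). Between the RNAi groups 3 were higher and 10 lower in Rab5 RNAi (12.7%, against 11.1%). None of these shares lay far above that of genes in general. Of 18 other kinesins and adaptors tested, 2 were higher in Rab5 RNAi. The adaptor milt, which links kinesin-1 to mitochondria, averaged 51.8 ± 4.89 FPKM in Rab5 RNAi and 38.1 ± 1.32 FPKM in controls (SD, n = 5 and 4; log2 difference 0.43, SE 0.07, limma adjusted p = 0.0012). The kinesin Klp31E averaged 10.4 ± 0.824 FPKM in Rab5 RNAi and 8.29 ± 0.311 FPKM in controls (0.30, limma adjusted p = 0.015). The chromokinesin nod was the 1 gene of this list called in Rab7-labelled heads, at 19.2 ± 2.76 FPKM in them and 10.1 ± 2.48 FPKM in controls (0.88, limma adjusted p = 0.005), and it was lower in Rab5 RNAi than in Rab7-labelled heads (-1.11).

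Of 15 other dynein and dynactin genes tested, the light intermediate chain Dlic was higher in Rab5 RNAi, at 54.3 ± 3.28 FPKM against 44.9 ± 3.16 FPKM in controls (0.27, limma adjusted p = 0.020). The dynein adaptor Spindly was higher in both RNAi groups, at 1.53 ± 0.15 FPKM in Rab5 RNAi, 1.71 ± 0.287 FPKM in Rab7-labelled and 0.685 ± 0.265 FPKM in control heads, comparisons that share the 4 controls. With a mean of 1.33 FPKM over all libraries, Spindly passed the filter of 1 FPKM only through the RNAi groups. Its calls as higher are thus not independent of the filter. The dynactin subunit DCTN6-p27 was lower in Rab5 RNAi, at 22 ± 2.64 FPKM against 32.8 ± 1.82 FPKM in controls (-0.56, limma adjusted p = 0.0012). Its partner DCTN5-p25 was lower than in Rab7-labelled heads (-0.35, limma adjusted p = 0.0328) but was not called against controls. Together with nudE, the called dynein genes thus went both ways.

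Of 20 centrosome, augmin and gamma-tubulin genes tested, Sas-6 was higher in Rab5 RNAi than in controls (0.36), and the augmin subunits wac (-1.21) and dgt5 (-0.40) were lower. With 0.77 FPKM in Rab5 RNAi and a mean of 1.06 FPKM over all libraries, dgt5 passed the filter of 1 FPKM only through the other groups. Its call as lower is thus not independent of the filter. Against Rab7-labelled heads the augmin subunits dgt2 (-0.50) and dgt6 (-0.29) were lower in Rab5 RNAi. Of 8 tubulins tested, betaTub97EF was lower in Rab5 RNAi, at 21.0 ± 3.73 FPKM against 35.3 ± 2.56 FPKM in controls (-0.74, limma adjusted p = 0.0014), and betaTub60D was lower in Rab7-labelled heads, at 4.9 ± 1.41 FPKM against 9.93 ± 1.6 FPKM in controls (-0.91, limma adjusted p = 0.0424). Of 24 tubulin folding and modification genes tested, 1 was called, the deglutamylase Nna1, lower in Rab5 RNAi than in controls (-0.38). The last list mixes microtubule-binding, membrane-skeleton and regulatory proteins. Of its 17 tested genes, 1 was higher in Rab5 RNAi than in controls, Apc2 (0.57). Lower were 3, the doublecortin-family protein DCX-EMAP (-0.77), the ankyrin Ank2 (-0.63) and the heavy spectrin kst (-0.62). Ank2 and kst have lengths of 46942 and 14454 bases, while DCX-EMAP has 4831 bases. In the other further lists, the genes lower in Rab5 RNAi than in controls were also shorter than Ank2 and kst. Their lengths ran from 708 bases for DCTN6-p27 to 8748 bases for Nna1. DCX-EMAP, Ank2 and kst, together with Cdk5alpha (-0.26), the activator of the kinase Cdk5, were also lower in Rab5 RNAi than in Rab7-labelled heads.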

How the data were processed

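Per the labels, libraries were made from total RNA of dissected heads with a SMARTer mRNA kit. The authors deposited FPKM per gene and library. The submitters' processing notes name only CASAVA, while aligner, counter, strand setting and genome build were not given in the sources used here. In the deposited table, 13 columns of per-sample values were not used. Gene coordinates and lengths are those of that table.

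Each FPKM value times gene length was a whole number of reads within 0.05 for all 182918 values above 0 (largest deviation 0.00013), so reads were recovered: 17138630 to 21410768 per library. The totals behind the FPKM equalled median-of-ratios scaling of these reads (largest relative difference 2.5e-08), so the values were already scaled between libraries. At this depth the 7 called genes of the main list rest on 1693 or more reads in every library, and those of the further lists on as few as 20.

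log2(FPKM + 1) was fitted with limma 3.58.1 (R 4.3.3; trend, robust, no covariates), all 3 groups in 1 fit, for the 10038 genes with a mean of at least 1 FPKM. The threshold for a call was a 2-sided p below 0.05 after Benjamini-Hochberg adjustment over all genes tested. On this scale the changes of low genes are understated. Means are given with SD. The fit was tested on simulated data. The labels do not say that libraries came from separate crosses, so the p-values measure only how far these libraries spread, which may be technical.

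The genes and lists were chosen with earlier results of these data known. Genes called in any comparison are given by library. Of the others, the 8 with the highest mean level and the cofactors, severing enzymes and plus-end proteins are named with means, and the rest with ranges. Genes of the further lists are named where called. Alternatives were another pseudocount, no filter, plain read totals, voom on the recovered reads, no trend, only the 2 groups compared, a replicate block, leaving out each library, and leaving out or modelling the libraries with high Act57B.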

Additional observations from a re-analysis of the deposited data

Results flagged for a closer look

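Within groups, 6 values stood apart from the other libraries of their group by Dixon's test, among 116 groups tested, where chance gives about 5.8 at 1 in 20. In controls, futsch had 54.1 FPKM in library 3 (the others 47.5 to 48.4), kat80 had 49.4 FPKM in library 4 (30.0 to 31.8), DCTN1-p150 had 25.5 FPKM in library 3 (24.1 to 24.3) and TBCD had 8.32 FPKM in library 2 (9.1 to 9.2). In Rab7-labelled heads, msps had 34.3 FPKM in library 4 (39.6 to 40.6). In Rab5 RNAi, Klp59C had 0.0501 FPKM (2 reads) in library 5 and was listed at 0 in the others. A single value above 0 always stands apart by this test, so that flag was fixed in advance.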

How the results depend on the processing

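Over 22 alternatives, sgg, shot and tacc kept their calls between Rab5 RNAi and control, as did sgg between the RNAi groups, and 0 of the 2376 values for single genes turned the direction of a call. Of these, 37 lost and 32 gained a call. The cause of each change was not tested. Between Rab5 RNAi and control 6 genes were called. Leaving out 1 library gave 3 to 6 (3 without control 1 and 3 without control 2, where 11.7% and 11.8% of all genes were called), leaving out the high Act57B libraries gave 15 (25.5%), and plain read totals gave 9 (20.2%). Between Rab7-labelled heads and control, where 1 was called, 0 were called with no filter, with plain read totals or with no trend. Also 0 were called without the high Act57B libraries, 2 with only the 2 groups in the fit (5.57% of all genes), and 0 to 1 without 1 library. Between the RNAi groups, where 2 were called, there were 5 with plain read totals (16.4% of all genes) and 1 with only the 2 groups (6.79%). Leaving out the high Act57B libraries gave 4 (15.7%), a term for them gave 5 (17.3%), and leaving out 1 library gave 1 to 2. Between the RNAi groups the median log2 difference of all genes was 0.108 with plain read totals and 0.005 with the deposited scaling. With plain read totals futsch lost its call between Rab5 RNAi and control (log2 difference -0.29, adjusted p = 0.061).

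The replicate numbers did not pair the libraries: correlations of same-numbered deviations from group means were -0.159 to 0.303, and 4 of 13 libraries correlated best with their own number. With a replicate block, 6 genes were called between Rab5 RNAi and control (19.4% of all genes), where Dlc90F gained a call and nudE lost its own. There were 0 between Rab7-labelled heads and control (4.2% of all genes) and 4 between the RNAi groups (11.6% of all genes). Between the RNAi groups, futsch (-0.35, adjusted p = 0.026) and shot (-0.31, adjusted p = 0.049) gained calls.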
